A study of Mus musculus with 6 samples.

Results

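Endothelial identity genes are genes by which the cells that line blood vessels are recognised. A set of 10 was chosen by gene symbol, namely *Pecam1*, *Cdh5*, *Emcn*, *Esam*, *Robo4*, *Egfl7*, *Ecscr*, *Eng*, *Vwf* and *Plvap*, out of 44788 symbols in the count table. All 10 had a row, and all 10 were among the 14550 genes that passed the filter on low counts. Bulk RNA-seq, which measures the RNA of a whole piece of tissue, had been performed on tail tendons of wild-type (WT) and *Mkx*-/- mice of strain C57BL/6, with 3 libraries of each genotype. The sample labels give an age of 3 weeks for both groups, and the study's text gives a slightly older age. The *Mkx*-/- mice lack the tendon transcription factor Mohawk and came from another laboratory. The sources used here do not give the form of the allele or how many mice went into a library. The p-values therefore measure the spread between these libraries, whatever its origin.

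The endothelium forms the inner wall of arteries, capillaries and veins, and its cells hold together through adherens and tight junctions. Tendon is a sparsely vascularised tissue whose vessels run mostly in the sheaths and between the fascicles. The question addressed here was whether these genes were higher in *Mkx*-/- tendons, and whether they moved together from library to library, as they would if every one of them followed the amount of vessel in the sample. In bulk RNA, a change in the number of endothelial cells and a change in the RNA per cell cannot be told apart.

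The libraries held 10835070 to 14160301 counts. *Col1a1*, *Col1a2* and *Sparc* took 42.0% to 48.5% of the counts in WT and 28.4% to 34.8% in *Mkx*-/- libraries, so levels are given as CPM, a gene's counts relative to the library total, after TMM normalization, which scales the libraries to each other on the bulk of the genes. *Mkx* had 1381 to 1825 counts in WT and 491 to 620 in *Mkx*-/- libraries (log2 fold change -1.60, edgeR adjusted p = 0.00183). WT replicate 3 held 301 counts of the Y-linked gene *Ddx3y* and the 5 other libraries 0, so the groups were not matched for sex. Defining tendon genes were abundant in every library, with *Fmod* between 15622 and 19825 CPM.

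*Mkx*-/- replicate 3 stood apart from the 5 other libraries in some genes of smooth muscle and some of arterial endothelium. *Myh11*, the myosin heavy chain of smooth muscle, had 2548 counts there and between 25 and 39 in the others. *Cnn1*, another smooth muscle protein, had 285 counts there, 2 in WT replicate 1 and 0 in the other 4. *Gja5*, a connexin of arterial endothelium, had 50 counts there and 0 in the 5 others. *Gja4*, another gene of arterial endothelium, had 49 counts there and between 2 and 8 in the others. Results that rest on this library are given with and without it.

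Together the 10 genes summed to 68.4, 85.5 and 80.8 CPM in the WT libraries and to 106, 121 and 178 CPM in the *Mkx*-/- libraries. The groups did not overlap in this sum, to which abundant genes add most, and the highest value was that of *Mkx*-/- replicate 3. They did overlap in the mean of the centred log2 levels given below, in which every gene counts equally, sparsely counted ones included. By gene, 1 of the 10, *Ecscr*, was upregulated at the study's thresholds of log2 fold change above 1 and adjusted p under 0.05 in edgeR's quasi-likelihood test, where 1.89% of all tested genes were. It was also the 1 gene of the set with a higher level past the adjusted p alone, against 3.18% of all genes. None was downregulated, against 1.33% of all tested genes, and none was lower past the adjusted p alone, against 2.26%. In none did all 3 *Mkx*-/- libraries lie below all 3 WT libraries, against 13.6% of all genes. At an unadjusted p under 0.05, 7 of the 10 were higher in *Mkx*-/- tendons, against 12.5% of all genes. In the same 7 genes all 3 *Mkx*-/- libraries lay above all 3 WT libraries, against 14.6% of all genes. Of the 10, 8 had a log2 fold change above 0, against 49.5% of all genes, and the median was 0.95, beside -0.0037 for all tested genes. Without *Mkx*-/- replicate 3 the median was 0.52. Genes without overlap keep that state when a library is removed, so their number could only stay or rise. It was 7, against 18.0% of all genes. Without WT replicate 3, the library with *Ddx3y*, the median was 1.03. DESeq2 called 3 of the 10 upregulated (*Ecscr*, *Pecam1* and *Vwf*), against 2.37% of all genes with an adjusted p, and the same 3 were its higher calls without a fold threshold, against 4.68%.

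**Figure D1:**
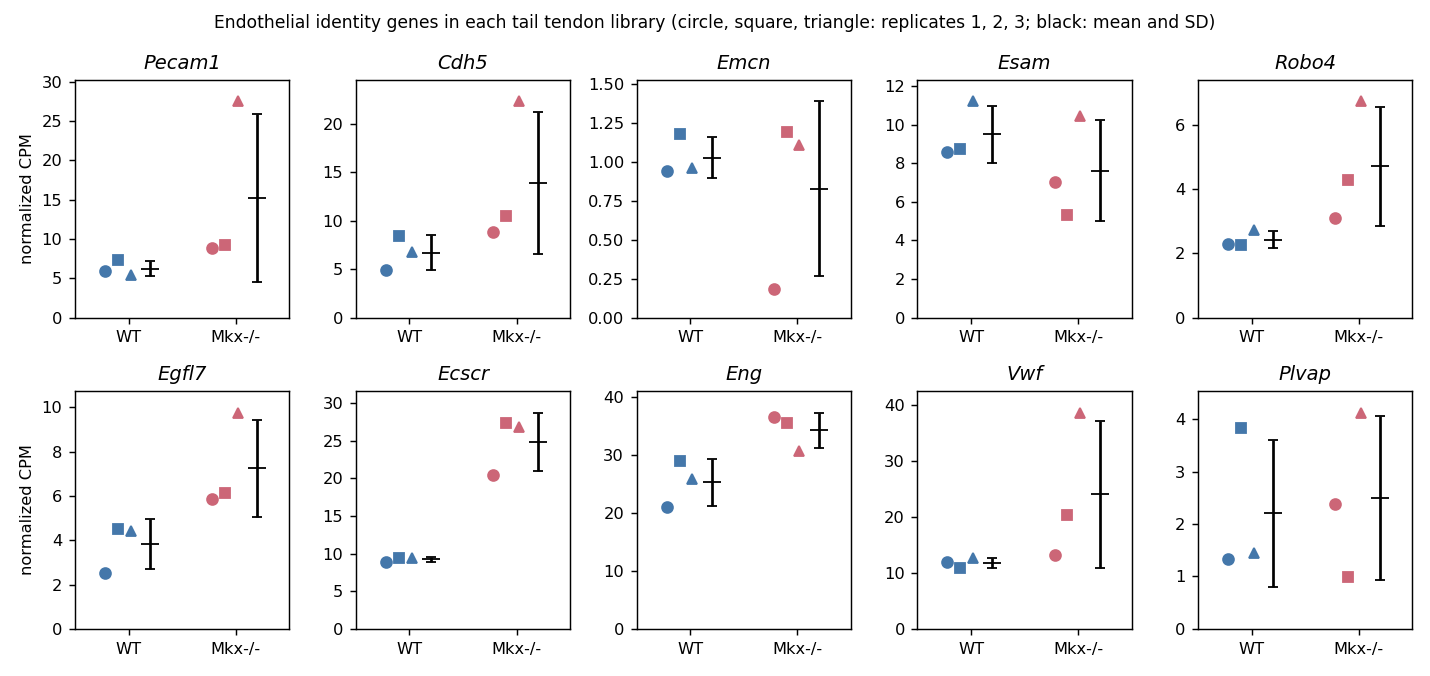
Level of each of the 10 genes in normalized CPM (vertical axes start at 0) in the 3 WT (blue) and 3 *Mkx*-/- libraries (red), with replicates 1, 2 and 3 as circle, square and triangle and the mean with SD in black. *Ecscr* separated the groups with little spread (8.90 to 9.42 against 20.4 to 27.3 CPM), *Pecam1*, *Cdh5* and *Vwf* were highest in *Mkx*-/- replicate 3, and *Esam*, *Emcn* and *Plvap* overlapped.

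The junction and adhesion genes did not behave alike (gene positions are in mm9). *Pecam1* (chr11:106515531-106611942, minus strand) encodes CD31, an adhesion molecule of endothelial cell contacts that platelets and leukocytes also carry. It was measured at 5.91, 7.26 and 5.45 CPM in WT and at 8.88, 9.27 and 27.5 CPM in *Mkx*-/- libraries. All 3 mutant libraries were above the WT libraries, and replicate 3 was at 3.03 times the mean of the other 2. The log2 fold change was 1.30, with a 95% confidence interval of 0.31 to 2.29 (adjusted p = 0.120 by edgeR, 0.0261 by DESeq2). Without *Mkx*-/- replicate 3 it was 0.55 (edgeR adjusted p = 0.238).

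*Cdh5* (chr8:106625525-106668402, plus strand) encodes VE-cadherin, the adherens junction cadherin of endothelium. Its level was 4.88, 8.44 and 6.81 CPM in WT and 8.88, 10.5 and 22.4 CPM in *Mkx*-/- libraries. The groups did not overlap, although WT replicate 2 and *Mkx*-/- replicate 1 were close, and replicate 3 was again the highest. A log2 fold change of 1.06 (0.22 to 1.89) was estimated (adjusted p = 0.130 by edgeR, 0.0528 by DESeq2), and one of 0.54 without replicate 3 (edgeR adjusted p = 0.353).

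*Esam* (chr9:37335663-37345904, plus strand) encodes an adhesion molecule of endothelial tight junctions that is also present on platelets. Its level was 8.59, 8.74 and 11.2 CPM in WT and 7.05, 5.34 and 10.5 CPM in *Mkx*-/- libraries. The groups overlapped, and the lowest values were those of *Mkx*-/- replicates 1 and 2. This gave a log2 fold change of -0.32 (-0.91 to 0.26, edgeR adjusted p = 0.505), and -0.62 without replicate 3 (edgeR adjusted p = 0.233).

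Among the surface glycoproteins and receptors, *Ecscr* was the gene that passed the test. It encodes a small transmembrane protein of endothelial cells that acts in their migration and survival. Its level was 8.90, 9.42 and 9.37 CPM in WT and 20.4, 27.3 and 26.9 CPM in *Mkx*-/- libraries. It was 9.23 ± 0.287 CPM in WT and 24.9 ± 3.86 CPM in mutant tendons (SD, n = 3 each), so the genotypes differed by far more than the replicates did. On the log2 scale it rose by 1.43 (standard error 0.15, 95% confidence interval 1.08 to 1.78, edgeR adjusted p = 0.00227). It was 1.37 without replicate 3 (edgeR adjusted p = 0.0124), and the adjusted p stayed under 0.05 in all 14 alternatives run, from 1.16e-09 with DESeq2 to 0.0185. Over *Ecscr* (chr18:35872740-35882010 in mm9, minus strand) the annotation places *1700066B19Rik* on the opposite strand, and that gene had 1 count in 1 library and 0 in the 5 others.

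*Eng* (chr2:32502115-32538189, plus strand) encodes endoglin, a co-receptor for ligands of the TGF-beta family that stromal cells of connective tissue carry too. Its level was 21.0, 29.0 and 25.8 CPM in WT and 36.5, 35.5 and 30.8 CPM in *Mkx*-/- libraries. The groups did not overlap, and replicate 3 was the lowest of the mutant libraries, unlike in *Pecam1*, *Cdh5* and *Vwf*. The difference of 0.44 on the log2 scale (0.10 to 0.78) did not pass (adjusted p = 0.126 by edgeR, 0.161 by DESeq2), and was 0.51 without replicate 3 (edgeR adjusted p = 0.194). On the same strand *Ak1* overlaps the start of *Eng*, and its level was 18.0 to 21.7 CPM in WT and 28.9 to 31.0 CPM in *Mkx*-/- libraries (log2 fold change 0.59, edgeR adjusted p = 0.0316). How the reads of the shared stretch were divided is not given in the sources used here.

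*Robo4* (chr9:37209482-37221608, plus strand) encodes a receptor of the Roundabout family that is found mainly on endothelium and acts in vessel stability. It had 23 to 34 counts in WT and 34 to 85 in *Mkx*-/- libraries. As normalized levels these were 2.28, 2.26 and 2.72 CPM against 3.11, 4.29 and 6.74 CPM, without overlap and highest in replicate 3. Its log2 fold change was 0.96 (0.24 to 1.68, edgeR adjusted p = 0.114) and 0.61 without replicate 3 (edgeR adjusted p = 0.336).

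*Emcn* (chr3:137004031-137095149, plus strand) encodes endomucin, a sialomucin of the surface of capillary and venous endothelium. It was near the detection limit, with 12 counts in each WT library and 2, 17 and 14 counts in the *Mkx*-/- libraries. The value of *Mkx*-/- replicate 1, 0.183 CPM with an exact 95% Poisson interval of 0.022 to 0.662 CPM for counting error alone, lay below the WT levels of 0.945 to 1.18 CPM, whose own intervals began at 0.488 CPM, and the other 2 mutant libraries lay at 1.19 and 1.11 CPM. The log2 fold change of -0.26 had an interval of -1.51 to 0.99 (edgeR adjusted p = 0.828), so no difference was detectable at this depth.

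Promoter windows from RefSeq were examined for 4 of the 10 genes, namely *Robo4*, *Egfl7*, *Eng* and *Emcn*. Their build, GRCm38.p6, differs from that of the counts. *Ecscr* was not among the genes examined, so nothing is said here of its promoter. Many endothelial promoters are bound by ETS factors, whose sites contain the letters GGAA. The 250 bases before the annotated start are shown 5′ to 3′ for 3 genes that differed in the data, *Robo4* (no overlap, highest in *Mkx*-/- replicate 3), *Eng* (no overlap, lowest of the mutants there) and *Emcn* (overlap), with GGAA on either strand (GGAA or TTCC) in capitals. The windows are chr9:37401722-37401971 for *Robo4*, chr2:32646345-32646594 for *Eng* and chr3:137340828-137341077 for *Emcn*, all on the plus strand.
Robo4: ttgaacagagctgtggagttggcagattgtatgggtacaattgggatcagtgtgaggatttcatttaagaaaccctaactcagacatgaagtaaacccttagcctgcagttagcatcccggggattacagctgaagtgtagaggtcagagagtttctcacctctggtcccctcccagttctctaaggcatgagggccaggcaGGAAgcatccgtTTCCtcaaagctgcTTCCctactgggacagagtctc
Eng: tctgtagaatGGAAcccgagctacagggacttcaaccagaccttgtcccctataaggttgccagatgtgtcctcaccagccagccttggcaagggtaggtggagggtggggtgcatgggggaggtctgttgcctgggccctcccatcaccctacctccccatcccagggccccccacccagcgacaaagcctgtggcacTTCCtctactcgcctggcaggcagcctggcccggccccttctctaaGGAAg
Emcn: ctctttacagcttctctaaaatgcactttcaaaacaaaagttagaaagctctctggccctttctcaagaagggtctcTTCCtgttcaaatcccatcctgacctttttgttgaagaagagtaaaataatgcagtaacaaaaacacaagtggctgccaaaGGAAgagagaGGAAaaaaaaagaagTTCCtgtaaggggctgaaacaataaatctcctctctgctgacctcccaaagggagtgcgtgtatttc
GGAA occurred 3 times in the *Robo4* and *Eng* windows and 4 times in that of *Emcn*, and 5, 3 and 1 times in the 3 windows of *Egfl7*. At least 1 was present in 93.4% of the 32536 windows of this length in RefSeq, with a median of 3. The longer CAGGAAG, which contains GGAA, was in the *Robo4* and *Emcn* windows and in 2 of the 3 of *Egfl7*, against 10.8% of all windows, and not in that of *Eng*. TATAAA was in none of the 6 windows, against 12.3% of all. A match of letters is a description of the sequence and shows no binding.

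The 2 secreted products were higher on average in *Mkx*-/- libraries without passing the edgeR test. *Vwf* (chr6:125496792-125636697, plus strand) encodes von Willebrand factor, a clotting protein that endothelial cells and megakaryocytes store. Its level was 11.97, 10.9 and 12.7 CPM in WT and 13.2, 20.4 and 38.7 CPM in *Mkx*-/- libraries. Replicate 1 of the mutant lay just above the WT libraries, and replicate 3 was 2.31 times the mean of the other 2. Over all 6 libraries the log2 fold change was 1.02, with an interval of 0.24 to 1.81 (adjusted p = 0.122 by edgeR, 0.0371 by DESeq2). It was 0.51 without *Mkx*-/- replicate 3 (edgeR adjusted p = 0.288) and 1.29 without *Mkx*-/- replicate 1 (edgeR adjusted p = 0.0421).

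*Egfl7* (chr2:26435534-26448640, plus strand) encodes a protein that endothelial cells deposit in the matrix around them. Its level was 2.52, 4.51 and 4.41 CPM in WT and 5.86, 6.11 and 9.75 CPM in *Mkx*-/- libraries, without overlap. The lowest WT value was that of replicate 1 and the highest mutant value that of replicate 3. The log2 fold change was 0.93, with an interval of 0.25 to 1.61 (adjusted p = 0.110 by edgeR, 0.0810 by DESeq2), and 0.66 without replicate 3 (edgeR adjusted p = 0.319). The microRNA gene *Mir126* lies within *Egfl7* and had 0 to 2 counts per library, so it was not measured by these libraries. The annotation also places *Gm20532* over *Egfl7* on the same strand and the end of *Agpat2* on the opposite one.

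*Plvap* (chr8:74021653-74035668, minus strand) encodes the protein of the diaphragms that span fenestrae and caveolae. It had 17, 39 and 18 counts in WT and 26, 14 and 52 counts in *Mkx*-/- libraries. The levels of 1.34, 3.83 and 1.44 CPM and of 2.38, 0.984 and 4.12 CPM overlapped over most of their range, and the WT libraries alone differed by more than counting error, with intervals of 0.780 to 2.14 CPM in replicate 1 and 2.72 to 5.23 CPM in replicate 2. Its log2 fold change was 0.20 (-1.12 to 1.51, edgeR adjusted p = 0.881) and -0.39 without *Mkx*-/- replicate 3 (edgeR adjusted p = 0.806). *Gtpbp3* overlaps the end of *Plvap* on the opposite strand.

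**Figure D2:**
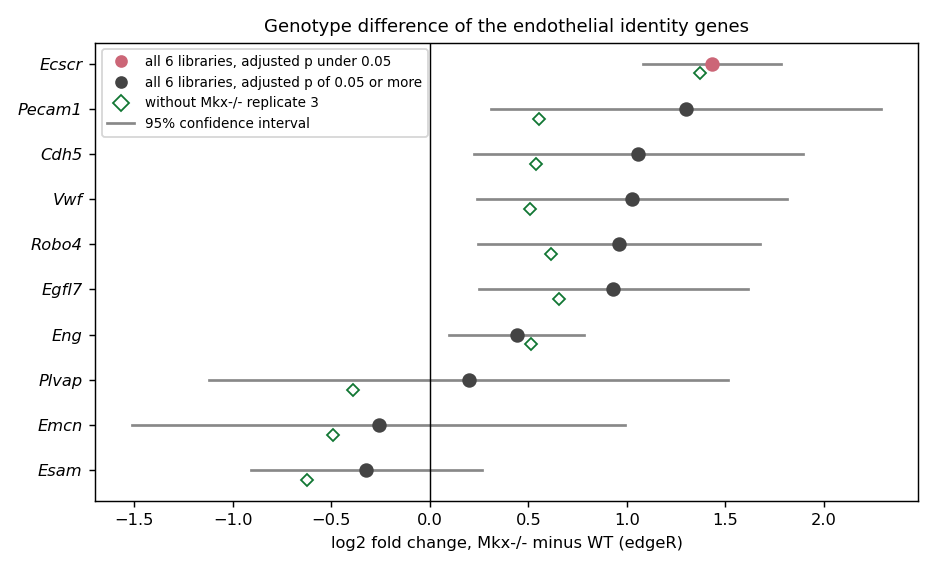
Log2 fold change of each gene between *Mkx*-/- and WT tendons in edgeR (horizontal axis) with its 95% confidence interval, and the same without *Mkx*-/- replicate 3 as open diamonds. *Ecscr* (1.43, and 1.37 without that library) is the gene past the adjusted threshold, while *Pecam1*, *Cdh5* and *Vwf* moved from 1.30, 1.06 and 1.02 to 0.55, 0.54 and 0.51.

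Levels were also compared between genes, as CPM per kilobase of annotated exon. In WT tendons *Eng* (6.53 ± 1.03, SD, n = 3) and *Ecscr* (5.50 ± 0.171) were the most abundant by length and overlapped. *Esam* followed at 3.32 ± 0.515, below both in every library. *Cdh5* (1.68), *Pecam1* (1.44), *Plvap* (1.09) and *Egfl7* (1.07) followed and overlapped each other, except that all values of *Pecam1* lay just above those of *Egfl7*. *Vwf* (0.737, overlapping the lower values of *Plvap* and *Egfl7*), whose exons span 16064 bases, *Robo4* (0.590) and *Emcn* (0.190) came last, with no overlap among these 3. In *Mkx*-/- tendons *Ecscr* was first at 14.8 ± 2.30, above *Eng* at 8.85 ± 0.787 in every library. *Esam* lay below *Pecam1* and *Cdh5* on this scale in mutant replicates 2 and 3, whereas it lay above both in all 3 WT libraries.

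Ratios between the 10 genes were compared from library to library. If all followed a single quantity, the ratio of any 2 would be the same in each library apart from counting error and the variation of single genes between samples, which for a typical gene had an SD of 0.28 on the log2 scale in edgeR (biological coefficient of variation 0.196). *Cdh5* had 0.827, 1.16 and 1.25 counts per count of *Pecam1* in WT and 1.0, 1.13 and 0.813 in *Mkx*-/- libraries. The exact 95% binomial intervals of these 6 ratios, which cover counting error only, shared a common stretch. *Vwf* lay between 1.41 and 2.32 per count of *Pecam1*, *Robo4* between 0.245 and 0.50 and *Egfl7* between 0.354 and 0.809, with the lowest value of all 3 in *Mkx*-/- replicate 3. Their intervals shared a stretch in the 5 other libraries, but not with that library included.

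*Eng* behaved in the same way with a larger drop, while for *Esam*, *Ecscr* and *Plvap* the intervals shared no stretch with or without *Mkx*-/- replicate 3. *Esam* had 1.45, 1.20 and 2.06 counts per count of *Pecam1* in WT and 0.794, 0.576 and 0.380 in *Mkx*-/- libraries. Every mutant library lay below every WT library in this ratio. The intervals of mutant replicates 2 (0.428 to 0.769) and 3 (0.309 to 0.466) were below those of the WT libraries, the lowest of which began at 0.874. That of *Mkx*-/- replicate 1 (0.581 to 1.08) reached into them. *Eng* had 3.56 to 4.74 counts per count of *Pecam1* in the WT libraries, 4.10 and 3.83 in *Mkx*-/- replicates 1 and 2, and 1.12 in replicate 3. The intervals of the first 5 libraries shared a common stretch, and that of replicate 3 (0.965 to 1.30) lay below them all. *Ecscr* had 1.30 to 1.72 counts per count of *Pecam1* in WT, 2.30 and 2.95 in *Mkx*-/- replicates 1 and 2, and 0.977 in replicate 3. Its proportion lay above the WT values in mutant replicates 1 and 2. The interval of replicate 2, from 2.41, lay above those of all WT libraries. That of replicate 1 (1.80 to 2.95) overlapped those of WT replicates 1 and 3, which reached 2.05 and 2.36. The interval of mutant replicate 3 (0.839 to 1.14) overlapped those of WT replicates 1 (1.12 to 2.05) and 2 (0.948 to 1.78). Per count of *Cdh5*, *Ecscr* was at 2.30 and 2.61 in mutant replicates 1 and 2 and at 1.20 in replicate 3, within the WT range of 1.12 to 1.82. With 3 libraries per group an exact two-sided permutation test of a single ratio cannot give a p below 0.1, so none is given.

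**Figure D3:**
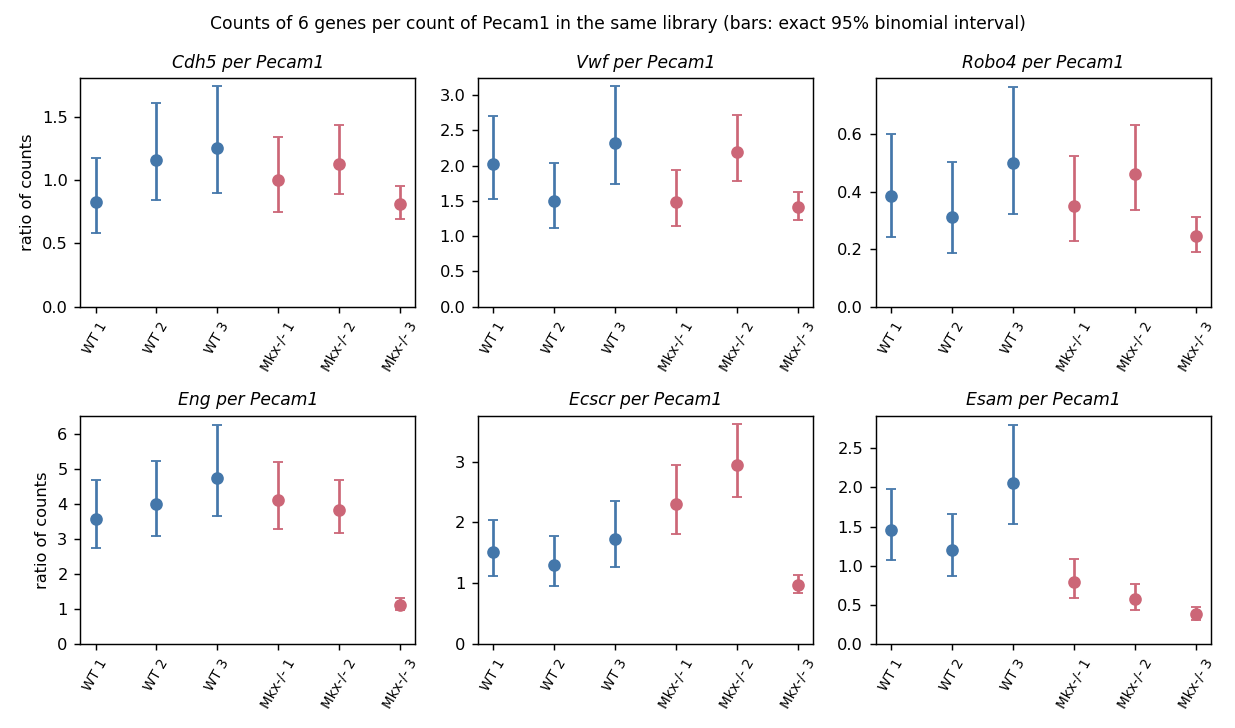
Counts of 6 genes per count of *Pecam1* in the same library (vertical axes start at 0), with exact 95% binomial intervals, in WT (blue) and *Mkx*-/- (red) libraries. *Cdh5* varied between 0.813 and 1.25, *Eng* dropped to 1.12 in *Mkx*-/- replicate 3 alone, and *Esam* was lower in all 3 *Mkx*-/- libraries.

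Each gene was also centred on its own mean log2 level over the 6 libraries and set against the mean of the 10. That mean was -0.50, -0.088 and -0.27 in WT and -0.14, 0.12 and 0.88 in *Mkx*-/- libraries. The groups overlapped in it, since *Mkx*-/- replicate 1 lay below WT replicate 2. Sparsely counted genes weighed on this order, with *Emcn* at -1.90 in the former and *Plvap* at 0.90 in the latter. In the 7 genes without overlap *Mkx*-/- replicate 1 lay above WT replicate 2. The SD of the departures from it was 0.24 for *Robo4*, as large as its counting error of 0.24, and 0.27 for *Cdh5*, 0.28 for *Egfl7* and 0.30 for *Vwf*, against counting errors of 0.14, 0.19 and 0.11. It was 0.40 for *Pecam1*, 0.42 for *Eng*, 0.54 for *Ecscr* and 0.58 for *Esam*, against counting errors between 0.077 and 0.15, and 0.71 and 0.96 for the sparsely counted *Plvap* and *Emcn*. *Mkx*-/- replicate 3 was the highest of the 6 libraries for 6 of the 10 genes (*Pecam1*, *Cdh5*, *Robo4*, *Egfl7*, *Vwf* and *Plvap*), against 20.0% of all tested genes. The WT libraries agreed more closely. The median coefficient of variation of the 10 genes was 15.4% among WT libraries, near the 16.3% of all genes, and 46.1% among *Mkx*-/- libraries, where all genes had 13.7%. Without *Mkx*-/- replicate 3 the values for the 2 remaining mutant libraries were 20.0% for the 10 genes and 11.1% for all genes.

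**Figure D4:**
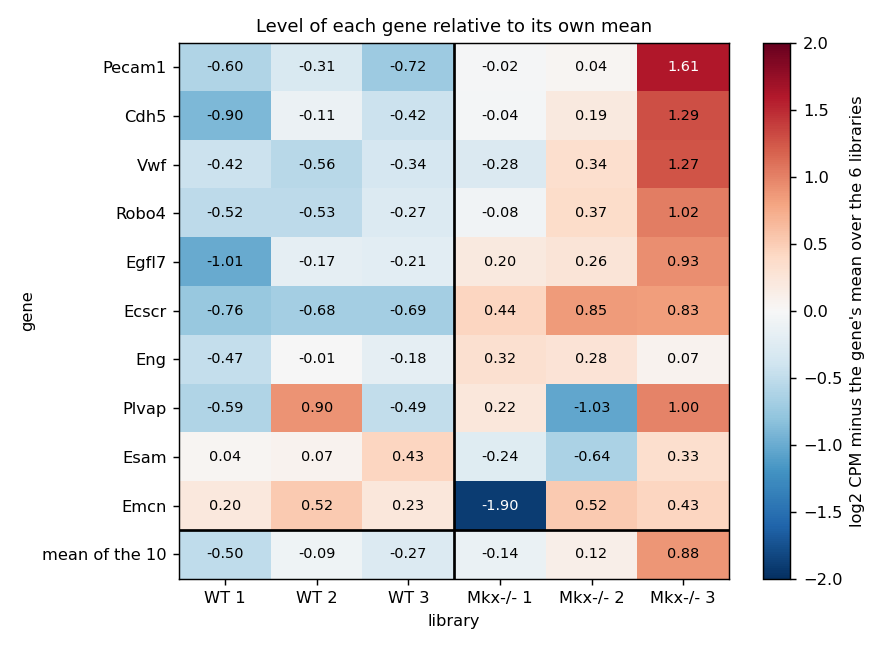
Log2 CPM of each gene minus its own mean over the 6 libraries (color, with the value in each cell) and, in the last line, the mean of the 10 genes. *Mkx*-/- replicate 3 carries the highest values of *Pecam1* (1.61), *Cdh5* (1.29) and *Vwf* (1.27), whereas *Ecscr* is at 0.44, 0.85 and 0.83 in the 3 mutant libraries and *Emcn* at -1.90 in the first.

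Among 10288 genes outside the set with a mean of at least 5 CPM, those with the profile most like the mean of the 10 genes were ranked by the root mean square difference of centred log2 levels over the 6 libraries. The closest were *Arhgef28* (0.082), *Cldn5* (0.088), *Actg-ps1* (0.089), *Pear1* (0.092) and *Fdft1* (0.092), followed by *Gm12715*, *Col27a1*, *Csrp1*, *Dbi* and *St6gal1* (0.10 to 0.11), where the median gene had 0.48. *Cldn5*, the claudin of endothelial tight junctions, was at 6.38, 9.23 and 7.85 CPM in WT and 8.06, 11.7 and 17.9 CPM in *Mkx*-/- libraries (log2 fold change 0.69, edgeR adjusted p = 0.202). It was the 1 of these 10 neighbors that is in an endothelial list. Of the set itself, *Robo4* and *Cdh5* lay closest to the mean of the other 9 genes (0.24 and 0.27), and *Plvap* and *Emcn* farthest (0.72 and 0.97).

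Of 28 other endothelial genes, 22 passed the filter, 21 of these had a higher mean in *Mkx*-/- tendons, against 49.5% of all genes, and 1, *Erg*, was upregulated. *Cd93*, a C-type lectin of endothelium, was the 1 with a lower mean (log2 fold change -0.55, edgeR adjusted p = 0.223). At an unadjusted p under 0.05, 8 were higher, against 12.5% of all genes, and DESeq2 passed *Erg* and *Tie1*. Their median log2 fold change was 0.65, and 0.38 without *Mkx*-/- replicate 3. *Erg*, an ETS transcription factor of endothelium that tendon and cartilage cells also use, was at 6.78, 8.44 and 9.69 CPM in WT and 44.1, 37.1 and 26.9 CPM in *Mkx*-/- libraries (log2 fold change 2.12, edgeR adjusted p = 0.00195). Like *Ecscr* and *Eng*, it was not highest in replicate 3. The most abundant of the list were *Cd34*, a sialomucin of endothelial and stromal progenitor cells, at 151 to 191 CPM in WT and 202 to 239 CPM in *Mkx*-/- libraries (log2 fold change 0.36, edgeR adjusted p = 0.181), and *Tek*, the angiopoietin receptor Tie2, at 22.8 to 30.9 and 25.1 to 27.8 CPM (log2 fold change 0.019, edgeR adjusted p = 0.960). Of the 22 genes, 14 were highest in *Mkx*-/- replicate 3, against 20.0% of all genes.

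Lists of endothelial subtypes held few tested genes, and none of these passed the adjusted threshold in edgeR. At an unadjusted p under 0.05 *Dll4*, *Darc*, *Pgf* and *Reln* were higher, and DESeq2 passed *Pgf* and *Reln*. Of 4 arterial genes tested, 3 had a higher mean in *Mkx*-/- tendons, against 49.5% of all genes, and the median log2 fold change was 0.49. Their most abundant members were *Efnb2* (log2 fold change -0.13), *Dll4* (1.08) and *Sox17* (0.56), with edgeR adjusted p of 0.849, 0.0665 and 0.410. All 3 venous genes tested had a higher mean, against 49.5% of all genes, with a median of 0.56. The same 3 venous genes were highest in *Mkx*-/- replicate 3, as were 2 of the 4 arterial genes, against 20.0% of all genes. *Darc*, a chemokine-binding protein of venules, was at 10.01 to 11.7 CPM in WT and 12.6 to 20.7 CPM in *Mkx*-/- libraries. *Ephb4* and *Nr2f2*, a receptor and a transcription factor of venous endothelium, had log2 fold changes of 0.22 and 0.56, and that of *Nr2f2* was 0.14 without *Mkx*-/- replicate 3. Without that library the medians of the arterial, venous and tip cell genes were 0.15, 0.20 and 0.86. Tip cells lead a growing sprout, and the 4 tip cell genes tested all had a higher mean, against 49.5% of all genes, with a median of 1.03. They included the growth factor gene *Pgf* (1.69, edgeR adjusted p = 0.0725), the Tie2 ligand gene *Angpt2* (0.70, edgeR adjusted p = 0.228) and *Dll4*, which is in both this list and the arterial one. Of the lymphatic list, *Reln*, *Lyve1* and *Pdpn* were tested, with log2 fold changes of 0.82, 0.078 and 0.015, while *Prox1*, the factor that defines lymphatic endothelium, had 0 or 1 count per library.

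Most tested genes of pericytes and smooth muscle were, like the endothelial sum, highest in 1 library. The list summed to 361 to 425 CPM in WT, 388 and 398 CPM in *Mkx*-/- replicates 1 and 2 and 1194 CPM in replicate 3. Of its 11 tested genes, 8 were highest in that library, against 20.0% of all genes. Its members *Rgs5*, *Notch3* and *Mcam*, which mark pericytes and vascular smooth muscle, were at 41.8, 25.8 and 64.4 CPM in replicate 3 and at most 7.21, 10.9 and 19.5 CPM elsewhere. *Pdgfrb* and *Abcc9* of the same list were not highest there, at 141 and 2.22 CPM against up to 226 and 2.88 CPM elsewhere. The most abundant, *Pdgfrb*, *Acta2* and *Cspg4*, had log2 fold changes of -0.034, 0.94 and -0.14, and without replicate 3 that of *Acta2* was -0.76 (edgeR adjusted p = 0.117) and the median of the 11 genes was 0.18 in place of 1.13. None of the 11 passed the adjusted threshold in edgeR. At an unadjusted p under 0.05, 5 were higher (*Myh11*, *Tagln*, *Notch3*, *Mcam* and *Des*), against 12.5% of all genes. DESeq2 passed *Notch3* and *Mcam* and gave no adjusted p for *Myh11*. *Des*, which skeletal muscle also expresses, was lowest of the mutants in replicate 3 (52.9, 26.9 and 15.9 CPM), unlike the other 4. The part of arterial, venous or other smooth muscle tissue in the endothelial values of replicate 3 was not tested. The values without this library are those given above.

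Genes of blood cells had no higher call in either tool. Erythroid genes summed to 455 CPM in WT replicate 1, 85.5 and 104 CPM in the other WT libraries and 52.1 to 94.3 CPM in *Mkx*-/- libraries, with 0 of 6 tested genes higher, and *Hbb-bs*, *Hba-a1* and *Hba-a2* as the most abundant. None passed in edgeR, 2 were lower at an unadjusted p under 0.05, and DESeq2 passed *Alas2*, which was lower. Platelet genes, which bear on *Pecam1*, *Esam* and *Vwf*, summed to 33.0 to 42.6 CPM in WT and 25.5 to 29.9 CPM in *Mkx*-/- libraries. Of the 3 tested, *Pf4* had a log2 fold change of -0.47, *Itga2b* of -0.86 and *Gp1bb* of 0.25, none past the adjusted threshold in either tool and the first 2 at an unadjusted p under 0.05, and *Gp1ba* was at 0 in all 6 libraries. Leukocyte genes, which bear on *Pecam1*, summed to 469 to 516 CPM in WT and 306 to 369 CPM in *Mkx*-/- libraries. All 10 tested had a lower mean, where 49.5% of all genes had a higher one, with a median log2 fold change of -0.55. *Csf1r* and *Emr1* fell by 0.63 and 1.09 on the log2 scale (edgeR adjusted p = 0.0173 and 0.00921), where 2.26% of all genes were lower past an adjusted p of 0.05. The other abundant ones, *Lyz2* and *Laptm5*, were lower by log2 values of -0.55 and -0.46 (edgeR adjusted p = 0.0728 and 0.104). At an unadjusted p under 0.05, 9 of the 10 were lower, and DESeq2 passed *Csf1r*, *Emr1* and *Lyz2*. The shares of all genes that were lower at an unadjusted p, or in DESeq2, were not counted. The shares that were higher were 12.5% and 4.68%.

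Genes of other tissues also differed between the libraries. Skeletal muscle genes summed to 3055, 1467 and 578 CPM in *Mkx*-/- replicates 1, 2 and 3 and to 102 to 431 CPM in WT, so they were lowest among the mutants where the endothelial sum was highest. *Tnnt3* and *Tnni2* were the 2 of 12 that were upregulated, against 1.89% of all genes. The most abundant, *Acta1*, *Myh1* and *Atp2a1*, differed by 3.04, 2.45 and 2.93 on the log2 scale (adjusted p = 0.0727, 0.124 and 0.0999 by edgeR). At an unadjusted p under 0.05, 11 of the 12 were higher, against 12.5% of all genes. DESeq2 passed 5, *Acta1* among them, against 4.68% of all genes that were higher calls. Schwann cell genes, which mark nerve, all had a higher mean, 7 of 7, against 49.5% of all genes, with a median log2 fold change of 0.96. The myelin gene *Mbp* was at 1643 to 2363 CPM in WT and 2822, 4457 and 5259 CPM in *Mkx*-/- replicates 1, 2 and 3, the same order as the endothelial sum (log2 fold change 0.99). *Ncmap* was the 1 past an adjusted p of 0.05 in edgeR (0.0468), DESeq2 passed all 7, and *Prx*, another myelin gene, had a log2 fold change of 0.85. Keratinocyte genes summed to 11.3 to 23.9 CPM in WT and 16.2 to 23.2 CPM in mutants, with 0 of 4 past the adjusted threshold in edgeR. The sum follows the most abundant of them, which was lower in mutants, while the median log2 fold change was 0.98. At an unadjusted p under 0.05, 2 were higher, against 12.5% of all genes, and 1 was lower. DESeq2 passed 1 as higher, against 4.68% of all genes, and 1 as lower. In 2 of the 4 all mutant libraries lay above all WT libraries, against 14.6% of all genes. Adipocyte genes summed to at most 2.25 CPM in any library. Of 8 tendon genes, *Thbs4* was upregulated, the median log2 fold change was -0.22, and the most abundant, *Col1a2*, *Col1a1* and *Fmod*, had values of -1.02, -0.68 and 0.11. The part of muscle and nerve in the endothelial values was not tested.

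**Figure D5:**
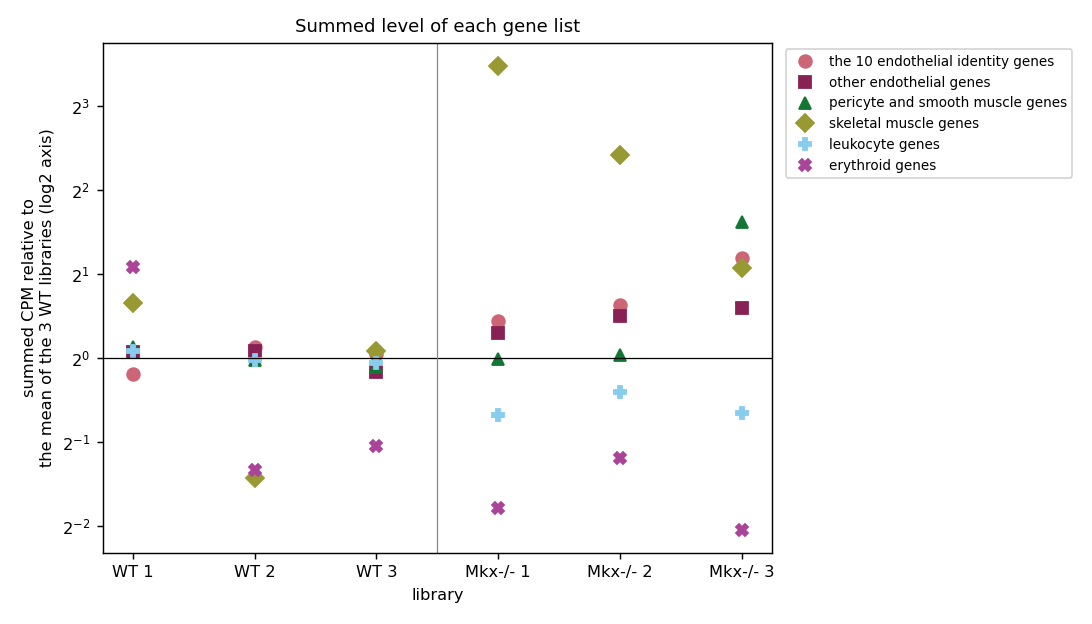
Summed CPM of 6 gene lists in each library, relative to the mean of the 3 WT libraries (log2 axis). In *Mkx*-/- replicates 1, 2 and 3 the 10 endothelial genes stood at 1.36, 1.54 and 2.28 times the WT mean, pericyte and smooth muscle genes at 0.995, 1.02 and 3.07, skeletal muscle genes at 11.1, 5.35 and 2.11, and leukocyte genes at 0.627, 0.756 and 0.635.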

How the data were processed

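RNA of tail tendon was sequenced on an Ion Proton for 3 WT and 3 *Mkx*-/- libraries. The authors removed adaptors and low-quality reads, aligned the rest to mm9 with MapSplice, and deposited raw counts per gene symbol. The counting program, its annotation and its treatment of strand are not given in the sources used here, so reads of overlapping genes may be shared. All 6 columns matched the labels, and 0 were left unused. Single-cell, rat and histological data were not analysed here.

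The deposited counts were tested in R 4.3.3 with edgeR 4.0.16 (TMM, filterByExpr, quasi-likelihood test on genotype, prior count 0.125, Benjamini-Hochberg adjustment over 14550 genes). Confidence intervals are 95%. Centred log2 levels used a prior count of 0.5. DESeq2 1.42.0 was an alternative, beside other scalings, filters, a robust fit, the replicate block and each library left out. Both tools were tested on simulated data. Exon lengths and overlaps are from GENCODE vM1 on mm9. *Pecam1*, *Cdh5*, *Robo4*, *Vwf*, *Esam* and *Emcn* overlap no other protein-coding gene there, and the other 4 do.

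The 10 genes and the lists were chosen with earlier results of these data known. Named were all 10, *Mkx*, called genes and the 3 most abundant of each list, and the 10 nearest profiles, and 2 genes of these lists are not reported here. *Ddx3y*, *Ak1*, *Mir126*, *Gja4*, *Gja5*, *Myh11*, *Cnn1*, *Rgs5*, *Notch3*, *Mcam*, *Tagln*, *Des*, *Abcc9*, *Cd93*, *Tie1*, *Alas2*, *Prox1* and *Gp1ba* were added after their values were seen. Chi-square per degree of freedom between replicates was 8.02 to 39.9, so no library was a repeat of another.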

Additional observations from a re-analysis of the deposited data

How the results depend on the processing

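*Ecscr* was past an adjusted p of 0.05 in all 14 alternatives. The number of the 10 genes called upregulated, 1 in the main analysis, was 3 with DESeq2, 3 with scaling by library size only and 4 with a filter of 1 count in any library, and 1 to 2 when a library was left out. The number past an adjusted p of 0.05 without a fold threshold was 3, 4, 5 and 1 to 2 under the same settings. Scaling by library size only raised the median of all genes to 0.25. The filter of 1 count tested 25777 genes. The median log2 fold change of the 10 genes lay between 0.52 (without *Mkx*-/- replicate 3) and 1.09 (without *Mkx*-/- replicate 1) when a library was left out, and was 0.99 without *Emcn* and *Plvap*, an alternative chosen after seeing the data. The direction of *Emcn* turned with scaling by library size only (0.013) and without *Mkx*-/- replicate 1 (0.15), its range over left-out libraries being -0.61 to 0.15. That of *Plvap* turned without WT replicate 1 (-0.067), WT replicate 3 (-0.058) and *Mkx*-/- replicate 3 (-0.39), with a range of -0.39 to 0.81. The causes were not tested. *Emcn* could not be tested with a filter of 10 counts in every library.

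With the replicate number as a block, 1 gene was called and the median was 0.91. The labels do not say whether the numbers pair the samples. The deviations of same-numbered libraries correlated at 0.070, -0.26 and 0.37 across genes, which cannot show whether they were handled together. Levels under about 20 counts, as in *Emcn* and *Plvap*, carry a large counting error.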
